A study of Homo sapiens with 16 samples.

Results

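To learn where monomethylation of histone H3 at lysine 4 (H3K4me1) moves when KDM6 demethylases are inhibited, the H3K4me1 CUT&Tag libraries of GSK-J4-treated BE2C cells were set against those of vehicle-treated cells. BE2C is a human neuroblastoma line with amplified MYCN, and CUT&Tag reads where an antibody to a mark tethers a DNA-cutting transposase. The members were the 4 of the 16 libraries of the series that were titled H3K4me1 with DMSO or GSK-J4, with 2 replicates in each group. Both groups were the same line grown for 72 h. One received 2.5 µM GSK-J4 and the other its vehicle, 0.1% DMSO. GSK-J4 is an ester that cells turn into GSK-J1, an inhibitor of the H3K27 demethylases KDM6A and KDM6B. A single cell line stood for the tumor type, the inhibitor cannot tell KDM6A from KDM6B, and other 2-oxoglutarate-dependent demethylases may be inhibited as well. The remaining libraries held H3K27me3 from the same treatments and both marks after a control siRNA or an siRNA to KDM6B.

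H3K4me1 is laid down mainly by KMT2C and KMT2D. It marks active and primed enhancers, and at active promoters it flanks the start on both sides while the start itself carries trimethylated lysine 4. Enhancers gain the mark when transcription factors open them and lose it when those factors leave, so its map outlines which regulatory elements a cell has in use. In adrenergic neuroblastoma these elements are held by factors such as HAND2 and GATA3.

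The files were lists of called regions rather than reads. An island is a broad region of enrichment called by SICER on a grid of 200 bp, and a narrow peak is a shorter summit called by MACS2. Islands of the 4 libraries that shared a base were joined into 23123 regions on chromosomes 1 to 22, X and Y. A region was gained when both GSK-J4 libraries and neither DMSO library had an island in it, and lost in the opposite case. By this rule 1796 regions were gained (7.77% of all) and 1201 were lost (5.19%), while 12056 (52.1%) were called in all 4 libraries. For comparison, the 4 patterns that pair 1 DMSO with 1 GSK-J4 library, in which the groups do not differ, held 167, 171, 279 and 386 regions.

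The 10 sequences below, chosen for the motifs that the later results turn on, show what gained and lost regions looked like at their strongest narrow peak. Each is 200 bp of the hg19 plus strand, written 5′ to 3′, outside annotated exons, with the nearest protein-coding start as its name. The first 4 are gained regions away from promoters with high island scores, though not in each case the highest, among those holding TGATGCAA on either strand. This 8-base word is the ATF4 composite element, which joins one arm of an ATF4 site to one of a C/EBP site, and it is in capitals.
EMP1 (chr12:13500481-13500680, between genes): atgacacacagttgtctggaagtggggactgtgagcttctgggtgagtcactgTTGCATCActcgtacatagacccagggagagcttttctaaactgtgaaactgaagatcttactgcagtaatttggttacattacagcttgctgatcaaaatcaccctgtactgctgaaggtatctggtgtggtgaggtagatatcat
AQP9 (chr15:58435085-58435284, in a gene): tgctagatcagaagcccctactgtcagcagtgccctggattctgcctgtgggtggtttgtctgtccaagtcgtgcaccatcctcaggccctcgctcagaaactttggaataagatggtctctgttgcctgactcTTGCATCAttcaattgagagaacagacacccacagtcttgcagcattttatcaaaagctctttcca
MAP3K15 (chrX:19584716-19584915, in a gene): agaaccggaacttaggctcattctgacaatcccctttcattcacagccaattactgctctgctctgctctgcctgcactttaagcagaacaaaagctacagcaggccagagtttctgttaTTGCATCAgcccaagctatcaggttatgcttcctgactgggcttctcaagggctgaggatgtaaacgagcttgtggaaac
CD276 (chr15:74011158-74011357, between genes): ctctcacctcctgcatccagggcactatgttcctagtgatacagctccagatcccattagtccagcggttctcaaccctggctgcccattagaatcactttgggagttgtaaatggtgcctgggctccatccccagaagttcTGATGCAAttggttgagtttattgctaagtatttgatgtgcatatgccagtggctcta
The next 3 are high-scoring lost regions away from promoters that hold a GATA word, AGATAA on either strand, in capitals.
NFIA (chr1:61352683-61352882, in a gene): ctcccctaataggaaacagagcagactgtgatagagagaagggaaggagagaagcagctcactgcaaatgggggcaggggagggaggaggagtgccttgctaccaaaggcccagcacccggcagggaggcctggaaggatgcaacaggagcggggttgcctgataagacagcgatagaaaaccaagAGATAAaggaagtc
BCHE (chr3:165266015-165266214, between genes): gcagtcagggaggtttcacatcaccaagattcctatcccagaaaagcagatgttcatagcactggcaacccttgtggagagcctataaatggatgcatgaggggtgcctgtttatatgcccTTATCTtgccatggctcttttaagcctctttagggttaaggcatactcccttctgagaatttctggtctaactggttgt
SIX2 (chr2:45282393-45282592, between genes): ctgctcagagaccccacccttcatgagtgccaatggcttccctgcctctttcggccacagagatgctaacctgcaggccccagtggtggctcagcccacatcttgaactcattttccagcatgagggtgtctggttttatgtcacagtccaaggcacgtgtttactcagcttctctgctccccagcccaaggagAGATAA
The last 3 are stretches of lost regions that reach a promoter and hold a GC box, GGGCGG on either strand, the word bound by SP and KLF factors, in capitals.
CNN2 (chr19:1028729-1028928, promoter region): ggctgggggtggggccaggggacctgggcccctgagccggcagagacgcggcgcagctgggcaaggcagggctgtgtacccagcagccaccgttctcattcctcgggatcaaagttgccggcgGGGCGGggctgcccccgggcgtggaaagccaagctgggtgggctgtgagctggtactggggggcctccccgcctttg
FANCC (chr9:98079571-98079770, promoter region): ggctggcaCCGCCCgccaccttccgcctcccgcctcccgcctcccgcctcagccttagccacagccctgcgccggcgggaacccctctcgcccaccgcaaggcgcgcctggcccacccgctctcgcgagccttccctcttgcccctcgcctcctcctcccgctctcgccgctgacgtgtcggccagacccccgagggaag
RTN4RL2 (chr11:57224915-57225114, promoter region): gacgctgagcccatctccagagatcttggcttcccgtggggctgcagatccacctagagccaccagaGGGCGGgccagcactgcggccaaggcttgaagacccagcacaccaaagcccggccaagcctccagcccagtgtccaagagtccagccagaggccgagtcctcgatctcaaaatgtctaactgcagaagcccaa
The strongest narrow peak of such a region need not be at the start: the stretches named for CNN2 and RTN4RL2 lie farther than 1 kb from it.

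The libraries held 18779 and 17764 islands with DMSO and 18993 and 19176 with GSK-J4. In number of islands the groups were apart (exact permutation p = 0.33). The islands covered 77.7 and 68.0 Mb against 76.1 and 77.3 Mb, so that the groups overlapped in covered length (exact permutation p = 1). DMSO replicate 2 was the shallowest, with a genome background of 0.0483 tags over a base against 0.0547 to 0.0569 in the others. The median summit held 4 or 5 overlapping fragments. An exact two-sided permutation test of 2 libraries against 2 cannot go below p = 0.33, so below it is stated for each measure whether the groups were apart. The titles give replicate numbers only, while the study describes its CUT&Tag replicates as biological. Every p-value concerns these libraries of a single cell line. All 17 adrenergic transcription factor genes carried an H3K4me1 island within 5 kb. So did TH, DBH and CHGA, whose products make and store catecholamines. Among all protein-coding genes 45% carried one. Of 19 markers of other cell types found in the annotation 8 did, close to that share, and PTPRC, CD3E, HBB, ALB, KRT5 and KRT14 had none in any library. INS, beside TH, was covered over 10.4, 10.3, 11.4 and 11.4 kb.

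Fewer transcription starts were covered by H3K4me1 after GSK-J4. Of 55754 protein-coding starts, islands covered 22.1% and 19.9% in the DMSO and 16.2% and 16.9% in the GSK-J4 libraries. The means were 21.0 ± 1.54% and 16.5 ± 0.500% (SD over 2 libraries), and the exact permutation p of 0.33 is the lowest this design allows. The groups were apart, and the difference of −4.44 percentage points, GSK-J4 minus DMSO, was larger than the spread in either group. Farther out this was no longer so. At 2 kb upstream the libraries overlapped, with 8.99% and 7.78% against 7.72% and 7.95%. At 5 kb downstream the order was the opposite, with 7.22% and 6.44% against 7.49% and 7.42%. Among narrow peaks the share centred within 1 kb of a start was 15.3% and 15.4% in the DMSO libraries, and 11.8% and 12.1% in the GSK-J4 libraries, so the groups were apart again (exact permutation p = 0.33).

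**Figure D1:**
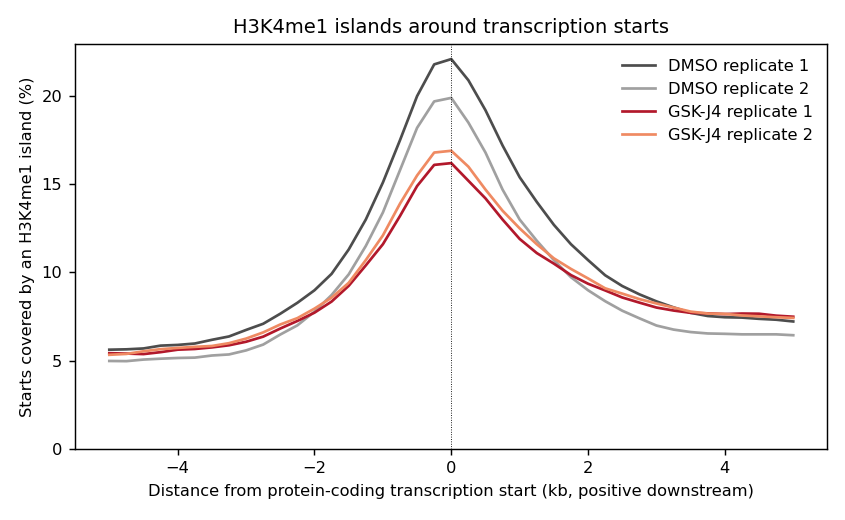
Percent of 55754 protein-coding transcription starts that lay in an H3K4me1 island (y axis) against distance from the start in kb (x axis, positive downstream), with 1 line per library. Both DMSO lines (gray) peak above both GSK-J4 lines (red) at the start, at 22.1% and 19.9% against 16.2% and 16.9%, and the lines cross by 5 kb downstream.

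Gained and lost regions differed in where they lay. Of the lost regions 401 (33.4%) reached within 1 kb of a protein-coding start, as against 156 of the gained regions (8.69%) and 26.7% of those called in all 4 libraries. The gained regions lay mostly inside genes away from starts (1107, or 61.6%), where 336 of the lost regions lay (28.0%). Between genes were 533 of the gained (29.7%) and 464 of the lost regions (38.6%). Gained regions away from promoters had a median distance of 39837 bp to the nearest start and lost ones 54119.5 bp. Gained regions were 3000 bp wide at the median and lost ones 2600 bp, both narrower than the 4800 bp of regions called in all 4. Not every changed base was in a new or vanished region. Of 7.04 Mb covered in both GSK-J4 and neither DMSO library, 44.6% lay in regions called in both groups, as did 51.7% of the 4.58 Mb lost. By distance from the nearest start, 2.63% of the called bases within 1 kb were gained and 6.99% lost, against 7.52% and 3.16% at 5 to 20 kb and 6.06% and 5% beyond 100 kb. Among chromosomes other than Y, which held 4 regions, X and 19 had the lowest shares of gained regions (3.86% and 4.42%) and the highest shares of lost regions (11.6% and 8.85%), and 22 had 10% gained and 3.29% lost.

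**Figure D2:**
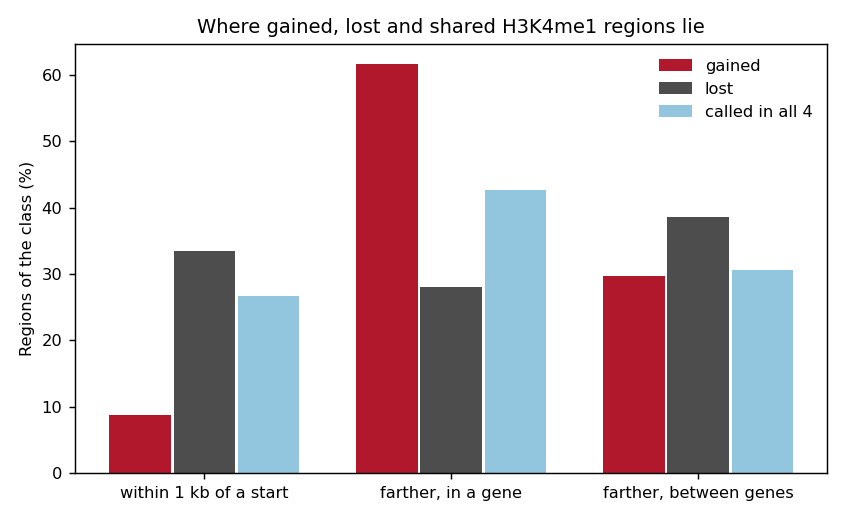
Percent of the regions of each class (y axis, bars) by place (x axis) for gained, lost and shared H3K4me1 regions, with 1796, 1201 and 12056 regions. Regions within 1 kb of a start made up 33.4% of the lost but 8.69% of the gained regions.

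Which class was larger turned at equal covered length and without the shallowest library. With an equal number of islands it did not turn, with 1557 regions gained and 1353 lost. With every library cut to the same covered length, keeping the highest scores, 1123 regions were gained and 1414 lost. Without DMSO replicate 2 the numbers were 2206 and 2581. The promoter share of gained regions was still below that of lost regions, with a difference of −27.4 percentage points against −24.7 as called.

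Promoters, taken as 1 kb to each side of a start, lost H3K4me1 calls more often than they gained them. Of 19785 genes, 118 gained a call (0.596%) and 448 lost it (2.26%). The patterns that pair 1 library of each group held 40, 56, 88 and 128 genes. In all, 5018 and 4580 genes had a called promoter in the DMSO libraries, and 3970 and 4137 in the GSK-J4 libraries. The groups were apart (exact permutation p = 0.33). At equal covered length 76 gained a call and 576 lost it, and with islands of at least 2 kb 122 gained a call and 280 lost it.

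The lost promoters with the largest gaps had several kb of cover with DMSO and little or none with GSK-J4. Within 2.5 kb of its start SIK3 (start at chr11:116969144), a salt-inducible kinase, was covered over 4844 and 4357 bp with DMSO and over 0 bp in both GSK-J4 libraries. PIK3R2, a regulatory subunit of phosphoinositide 3-kinase, had 4273 bp in both DMSO libraries and 73 and 0 bp with GSK-J4. MAPK9, the kinase JNK2, had 4134 and 4200 bp against 0 and 0. ID2, an inhibitor of basic helix-loop-helix factors, was covered over 5001 and 3801 bp, and ZFP36L1, which directs messenger RNA decay, over 5001 and 3917 bp. Both had no covered base with GSK-J4. COQ8B, of coenzyme Q synthesis, NCCRP1, FSD1, EDIL3, a matrix ligand of integrins, and RAB33A, a small GTPase, completed the 10 with the largest gaps, which ran from 3600 to 4357 bp. These 10 were ranked by that gap, so their separation follows from the choice.

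The promoters with the largest gain had 0 bp in both DMSO libraries. PIERCE1 (start at chr9:138393580), of the microtubules of cilia, had 4880 and 5001 bp with GSK-J4. Its neighbor MRPS2, of the mitochondrial ribosome, had 3828 and 4028 bp and shared the same island. CTSD, the lysosomal protease cathepsin D, had 4400 and 4200 bp. MSANTD1, MOB2, IGFN1, ELMO3, GPR139, an orphan receptor of the brain, and 2 genes without a symbol followed, with gaps from 3756 to 4015 bp.

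Away from promoters 1640 regions were gained and 800 lost. The strongest gained region, by the lower of its island scores in the 2 calling libraries, lay in EEFSEC, a factor of selenoprotein synthesis, 60444 bp from the start of RUVBL1 (chr3:127933201-127938200). It was covered over 5 and 4.6 kb with GSK-J4 and nowhere with DMSO. The next were 30227 bp from TBC1D16 (5.6 and 6.2 kb) and in ILKAP, 6390 bp from ERFE (7.8 and 10 kb). The region in CACNA1D, a calcium channel, covered 7.4 and 6.4 kb, that in KCNH1, a potassium channel, 8.8 and 11 kb, and that in NFASC, a cell adhesion molecule of the axon, 3.2 and 4.2 kb. Others of the 10 were nearest ADCY5, JADE1 and KRT86.

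The strongest lost regions had lower scores, from 138 to 185, than the strongest gained ones, from 232 to 319. For lost regions the calling libraries included DMSO replicate 2, the shallowest, and the part of depth in this difference was not tested. The first lay in SMAD9 (chr13:37483601-37491200), a transducer of BMP signals, with 5.6 and 6.2 kb with DMSO and 0 with GSK-J4. Lost regions in RAPGEF4, a cyclic AMP-activated exchange factor, covered 6.2 and 6 kb, and one in NFIA, a transcription factor of glia, covered 4.2 kb in both libraries. The others were nearest RBM26, GNA14, CHD2, ANKRD33B, PPP1R3B, BCHE and ACOD1. Some genes held several gained regions: NAV1 and SORCS2 each held 8, AUTS2 and TENM4 each 7, and no gene held more than 3 lost ones. Inside genes away from starts lay 1107 gained but 336 lost regions in all. The part of these totals and of gene length in the counts per gene was not tested.

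Over whole genes with 5 kb on each side, 1372 of 20162 genes (6.8%) had more covered length in both GSK-J4 than in both DMSO libraries by at least 1 kb, and 890 (4.41%) had less. At equal covered length these were 1078 and 1121, and without DMSO replicate 2 they were 1727 and 2284. MAD1L1, of the spindle checkpoint, had the widest gap. It was covered over 141 and 128 kb with DMSO and 189 and 187 kb with GSK-J4. NAV1, a microtubule-binding neuron navigator, had 65.4 and 59.4 kb against 105 and 109 kb. GNAO1, the G protein alpha subunit abundant in neurons, had 60.4 and 53 kb against 92.6 and 91 kb. TBC1D22A had 17.2 and 12.4 kb against 46.2 and 44 kb. KLHL29, PRKCE, a protein kinase C, CDH23, a cadherin, AUTS2 and SORCS2, a receptor of neurons, were also among the 10 widest, as was a gene model without a symbol that spans MAD1L1.

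The genes with less covered length changed over shorter stretches. NRG3, a neuregulin ligand of ERBB4, had 22 and 24.2 kb with DMSO and 7.4 and 5.2 kb with GSK-J4. ZFPM2, a cofactor of GATA factors, had 36 and 36.4 kb against 22 and 21.8 kb. MAML3, a coactivator of Notch, had 115 and 102 kb against 84 and 89.6 kb. SCHIP1, RERG, GPC6, RPH3A, of synaptic vesicles, EBF3, a transcription factor of neurons, PPP2R5C and BCAR3 completed the list. Higher genes were 50.5 kb long at the median and lower genes 36.9 kb, against 27.2 kb for all genes. Both shares went up with gene length: of genes of 100 kb or longer 12.2% were higher and 6.98% lower, and of shorter genes 5.6% and 3.84%. A lost promoter was present in 323 of the 890 lower genes and a gained promoter in 99 of the 1372 higher genes. Of the 19785 genes whose promoters were counted, 2.26% had a lost and 0.596% a gained promoter. Promoters lie within the stretch over which covered length was counted, so this overlap follows largely by construction.

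**Figure D3:**
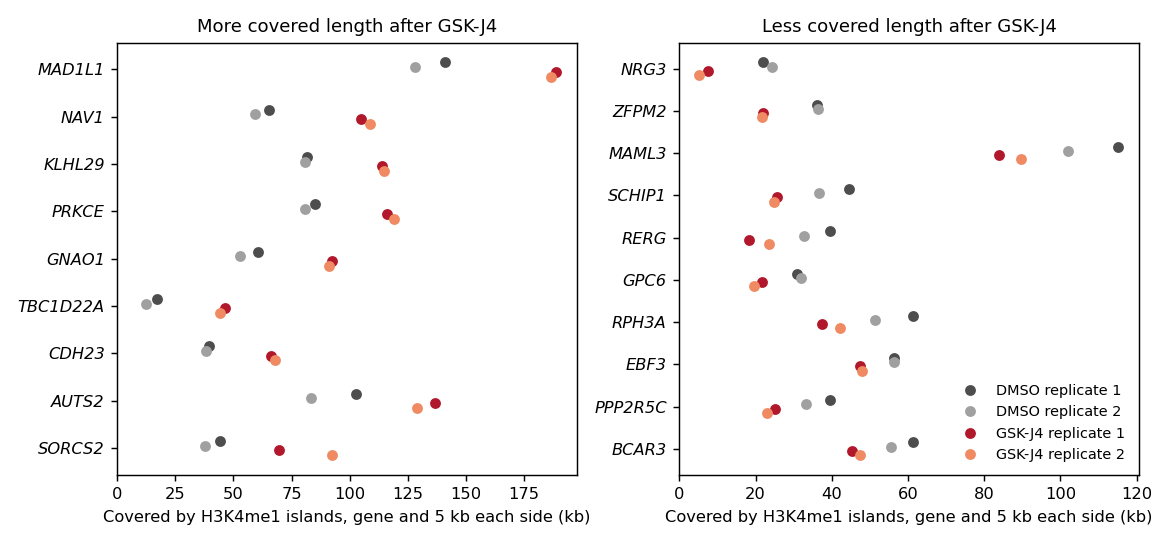
Length covered by H3K4me1 islands, in kb over the gene and 5 kb on each side (x axis), for the genes (y axis) with the widest gap between groups in each direction, with 1 point per library. MAD1L1 runs from 128 to 189 kb and NRG3 from 24.2 down to 5.2 kb, and in every gene drawn the DMSO (gray) and GSK-J4 (red) points are apart.

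The median difference in covered length was −1.2 kb over the adrenergic factors, −0.4 kb over the catecholamine genes and 0 to 0.2 kb over the other lists, beside 0 kb over all genes. Genes of the adrenergic program included some with less covered length and none with more. Of 17 transcription factor genes 3 were lower and 0 higher, beside 4.41% and 6.8% of all genes, or 9.81% and 15.1% of the 9074 genes that carried an island, as these 17 and the 13 catecholamine genes all did. GATA3 had 15 and 14.2 kb with DMSO and 7.6 and 7 kb with GSK-J4 and lost its promoter call. INSM1, a factor of neuroendocrine cells, had 5.05 and 3.05 kb against 0 and 0 and lost its promoter call as well. HAND1 had 13.3 and 11.9 kb against 10.5 and 7.26 kb. MYCN was covered over 15.7 kb in all 4 libraries. The groups were not apart at PHOX2A (10.3, 10.7, 9.68 and 9.48 kb, DMSO first) by 1 kb or at HAND2 (4.28, 4.88, 4.08 and 4.88 kb). Of 13 catecholamine and granule genes 4 were lower and 0 higher. These were DDC, the decarboxylase that makes dopamine, with 26.8 and 27.2 kb against 24.6 and 23.8 kb, SLC6A2, the norepinephrine transporter, with 35.1 and 31.5 against 26.1 and 29.3 kb, and the granins CHGB and SCG3. Of 26 neuronal genes 3 were lower, namely NEFL, MAP2 and DCX, which encode cytoskeletal proteins. ALK alone was higher, and at equal covered length its difference turned to −0.3 kb.

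Of 24 genes of the mesenchymal state 16 carried an island, 5 were lower and 0 higher. Beside these, 4.41% of all genes were lower and 6.8% higher, or 9.81% and 15.1% of the genes that carried an island. Both backgrounds hold for each list in this paragraph. SNAI2, a repressor of epithelial genes, had 2.4 and 1.8 kb with DMSO and 0 and 0 with GSK-J4, and its promoter call was lost. ZNF217 had 11.2 and 15.4 kb against 7.6 and 6 kb. TWIST1, COL1A1 and TGFBR2 were the others, and the TWIST1 model of this annotation spans 96.6 kb. Of 33 cell cycle genes 13 carried an island, near the 45% of all protein-coding genes. Of these MCM3, of the replicative helicase, with 3.2 and 1 kb against 0 and 0, and MYBL2, a proliferation factor, with 3 and 2.2 kb against 0 and 0, were lower, none was higher, and 4 of the 33 lost a promoter call, beside 2.26% of all genes. Of 15 genes of the CDK4/6-RB axis 3 were lower: CCND1, which encodes cyclin D1, RB1, and CDKN1B, the inhibitor p27. None of 18 genes of the enzymes and complex subunits of H3K27 and H3K4 methylation, a list that also held CTCF, was higher or lower.

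Stress response, retinoic acid and axon guidance genes held most of the higher list members. Of 21 stress response genes 4 were higher, beside 6.8% higher and 4.41% lower of all genes. Among the genes that carried an island 15.1% were higher and 9.81% lower. An island was carried by 16 of the 21 stress response, 14 of the 17 retinoic acid and 26 of the 32 axon guidance genes. SESN2, a sestrin induced by amino acid shortage, had no island with DMSO and 4.8 and 2.8 kb with GSK-J4. TRIB3, a pseudokinase, had 4 and 2 kb against 13.4 and 6.6 kb. CHAC1, which degrades glutathione, had 5.6 and 3.8 kb against 7.4 and 8.2 kb. The fourth was BCL2L11, which encodes the death factor BIM. All but BCL2L11 are known targets of the transcription factor ATF4, and so are list members that were not higher. Of these, DDIT3 (9.52, 6.4, 7.32 and 7.32 kb, DMSO first) and DDIT4 (6, 4.4, 3.2 and 4.6 kb) were not apart. ASNS and SLC7A11 had no island in any library. The ATF4 gene itself was lower, with 8.89 and 6.69 kb against 3.29 and 4.89 kb, and lost its promoter call, and ATF3 was lower as well. Of 17 retinoic acid genes RXRA, a retinoid receptor (68.6 and 68.4 kb against 75.2 and 79 kb), DHRS3, a retinal reductase (0 and 0 against 6.2 and 6.8 kb), and CRABP1, which binds retinoic acid, were higher, and RARB was lower. Of 32 axon guidance genes 6 were higher, all of them except UNC5A 100 kb or longer, a length at which 12.2% of all genes were higher. PLXNA2, a semaphorin receptor, had 58.1 and 60.2 kb against 85.5 and 91.6 kb, SEMA6D had 15.4 and 9 kb against 23.2 and 24.8 kb, and NRP2, PLXNA4, SEMA3C and UNC5A were the others. The receptor genes ROBO1, ROBO2 and UNC5C were lower. Of 12 genes named in the study CYRIA, with 0 and 0 against 1.8 and 3.4 kb, and NAV2, with 18.9 and 16.4 against 21.9 and 21.6 kb, were higher. NAV2 turned to −0.7 kb at equal covered length. Among the markers of other cell types 2 were higher (INS and SFTPC) and 2 lower (CDH5 and MYOD1), and their part in these counts was not tested.

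The DNA under gained and lost regions was then compared in 200 bp centred on the strongest narrow peak, for 16 short motifs searched on both strands and counted separately, so that matches of different motifs may overlap. A narrow peak was present in 1394 of the 1640 gained and 694 of the 800 lost regions away from promoters, and in 8720 of 8839 called in all 4. The ATF4 composite TGATGCAA was found in 51 of the gained regions, or 3.66% (95% Wilson interval 2.79 to 4.78%). It was in 0.576% of the lost regions (0.224 to 1.47%), in 0.768% of those called in all 4 (0.606 to 0.975%) and in 1.23% of all 16268 regions away from promoters. The intervals, which cover counting error only, did not overlap between gained and lost. Among windows of 45 to 55% GC, a range set once the results were known, these shares came to 5.38%, 0.746% and 1.13%. Below 45% GC the word was in 4.45% of the gained (2.62 to 7.47%) and 1.03% of the lost regions (0.282 to 3.66%). From 55% GC up it was in 1.47% (0.747 to 2.87%) and 0% (0 to 1.64%). In both of these outer ranges the intervals of gained and lost regions overlapped. The binding of ATF4 was not measured.

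For the ATF4 word the ratio of the gained to the lost share was high and both shares low, while commoner motifs differed by more percentage points. AGATAA, bound by GATA factors, was in 13.8% of the lost (11.5 to 16.6%) and 8.9% of the gained regions (7.51 to 10.5%), with 10.4% of those called in all 4 and 11.1% of all distal regions. Among windows with 45 to 55% GC these were 12.7%, 10.2% and 13.9%, with overlapping intervals. TGANTCA, the AP-1 word, was in 9.47% of the gained, 6.2% of the lost and 9.27% of the regions called in all 4, and in 9.27% of all distal regions. GGGCGG was in 6.6%, 12.8% and 12.8%, and in 11% of all distal regions. The CTCF core was in 1.36% of the gained (0.874 to 2.12%), 1.15% of the lost (0.585 to 2.26%) and 1.71% of the regions called in all 4, with overlapping intervals. In regions that reach a promoter GGGCGG was in 50.1% of the lost calls (45 to 55.2%), 21.3% of the gained (15.3 to 28.9%) and 40.7% of those called in all 4, beside 42.3% of all promoter regions. Lost promoter windows had a median of 15 CpG dinucleotides and gained ones 4, beside 9 in those called in all 4 and 11 in all promoter regions.

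**Figure D4:**
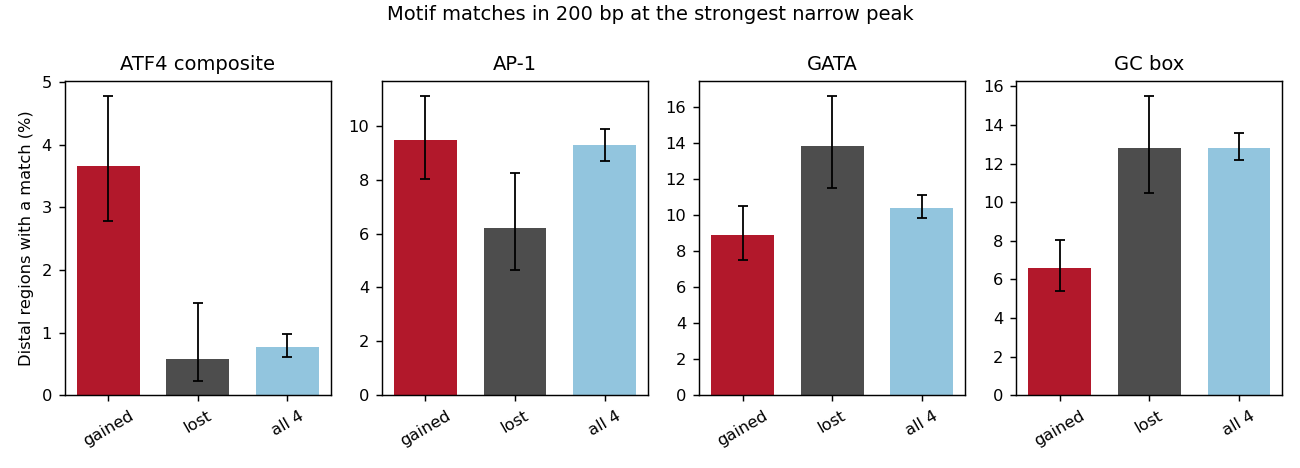
Percent of distal regions with a motif match in 200 bp at the strongest narrow peak (y axis, from 0, own scale in each panel) for gained, lost and shared regions, with 1394, 694 and 8720 regions. Bars are shares and whiskers 95% Wilson intervals. The ATF4 composite was in 3.66% of gained and 0.576% of lost regions.

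The 51 gained regions with TGATGCAA lay near genes of several roles. Among the strongest, 1 lay 435610 bp from MYC, the growth regulator, with 4 and 4.8 kb, and 1 lay 4657 bp from TNFRSF10B, which encodes the death receptor DR5, with 1.6 and 2.2 kb. Others lay 30237 bp from CDKN1A, the inhibitor p21 (1.4 and 3.2 kb), 52384 bp from PHLDA1 (2.4 and 1.2 kb) and 7677 bp from SIAH1, a ubiquitin ligase (1.4 kb in both). These were picked after their values were seen. None of the 51 had a gene of the stress list as its nearest start. In libraries not used for the calls, 13.7% and 17.6% of the 51 had an island with siCtrl and 7.84% and 3.92% with the siRNA to KDM6B. Gained regions without the word had one in 45.2% and 43.8%, and in 22.8% and 22.3%.

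The same word was counted in every narrow peak of each library, with no use of the island calls. It was in 0.639% and 0.687% of the narrow peaks with DMSO and 1.07% and 1.03% with GSK-J4, and the groups were apart (exact permutation p = 0.33). In narrow peaks away from starts with at least 10 tags the shares were 0.56% and 0.595% against 0.928% and 0.846%. Over all narrow peaks all 16 motifs were apart between the groups, and the median GC was 53% in both DMSO and 51.5% in both GSK-J4 libraries. The part of GC in the other shares was not tested. In the distal peaks of at least 10 tags, whose median GC was 58.5% or 59% in each library, 8 of the 16 were apart.

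Heights within shared narrow peaks were tested next. The summit of each of 7127 narrow peaks called in all 4 libraries, with a mean of at least 10 tags, was divided by the genome background of its library and tested on the log2 scale with limma. The prior degrees of freedom were infinite, so each standard error was set by the trend of the spread with height over all peaks and not by the spread of that peak, and p-values far below those of 2 against 2 libraries rest on this pooling. At a Benjamini-Hochberg adjusted p under 0.05, 139 summits were higher (1.95%) and 800 lower (11.2%) with GSK-J4. All shared peaks together were shifted, with a median log2 fold of −0.24. With each library centred on its median, 125 were higher and 87 lower, and without DMSO replicate 2 and with no centring 63 were higher and 146 lower. With the fold as deposited, which uses the background around each peak, 2 were higher and 1 lower, and 859 peaks had an unadjusted p under 0.05. Within 1 kb of a start 96 of 689 summits were lower and 7 higher, with a median log2 fold of −0.35, and farther out 704 of 6438 were lower and 132 higher, with a median of −0.23.

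Many called summits lay around MYCN on chromosome 2, the locus amplified in this line. Of 164 peaks nearest MYCN 51 were lower and 2 higher, and of 52 nearest CYRIA, which follows downstream, 18 were higher and 4 lower. Of all tested summits 11.2% were lower and 1.95% higher. The median log2 fold was −0.21 nearest MYCN and 0.28 nearest CYRIA, beside −0.24 over all peaks, so that the peaks nearest MYCN were not lower at the median than peaks in general. After centring the medians were 0.000211 and 0.493. Neighboring peaks share fragments, so they are not separate measurements. The lowest p belonged to a peak 338761 bp from the start of CYRIA (chr2:16508160-16508335), whose summit held 118 and 86 tags with DMSO and 237 and 243 with GSK-J4 (log2 fold 1.17 ± 0.105, SE, limma adjusted p = 2.4e-25). The lowest among falling peaks was 286317 bp from the start of MYCN (chr2:16367005-16367243), with 305 and 292 against 149 and 180 tags (log2 fold −0.94 ± 0.0903, limma adjusted p = 6.3e-22). Its neighbor had 195 and 171 against 86 and 106 tags.

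All 7 tested peaks within 1 kb of the MYCN start were lower. The nearest to the start, which overlaps it, had 141 and 124 tags with DMSO and 85 and 97 with GSK-J4 (log2 fold −0.62 ± 0.121, limma adjusted p = 3.4e-05). Their median log2 fold was −0.61. With each library centred on its median 3 of the 7 stayed lower, and with quantile normalization 4. Centring left 18 lower and 6 higher of the 164 nearest MYCN, and 22 higher and 1 lower of the 52 nearest CYRIA. With the fold as deposited none of the 216 passed. Leaving out each library in turn gave 10 to 14 higher and 2 or 3 lower summits nearest CYRIA and 28 to 46 lower nearest MYCN.

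**Figure D5:**
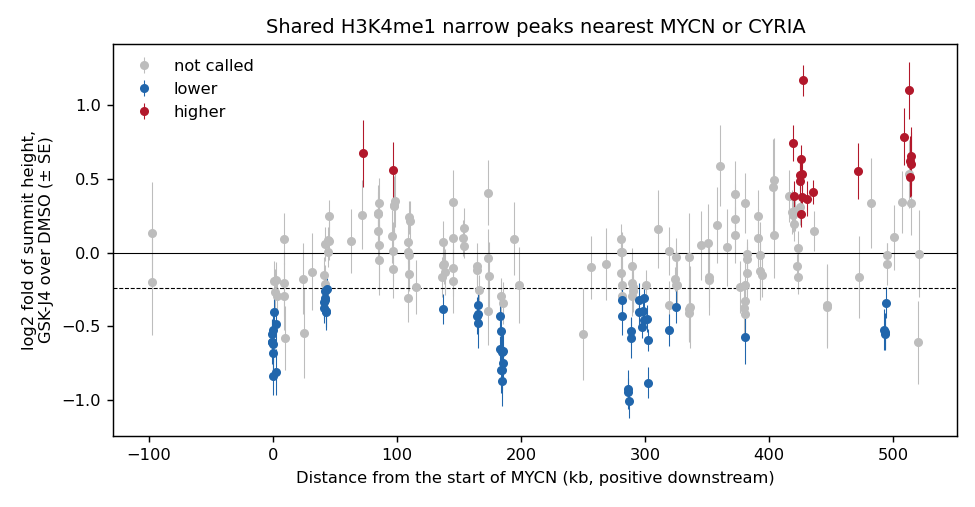
log2 fold of summit height, GSK-J4 over DMSO, with its standard error (y axis) for each shared narrow peak nearest MYCN or CYRIA, against its distance from the start of MYCN in kb (x axis). Blue and red points passed limma at an adjusted p under 0.05, and the dashed line is the median of all 7127 peaks, −0.24. Lower summits sit at the MYCN start and downstream of it, and 18 of the 52 peaks nearest CYRIA are higher.

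Outside the amplicon single summits moved by more. In ARHGEF2, a guanine nucleotide exchange factor, a peak 4912 bp from the start (chr1:155953250-155953644) had 7 and 6 tags with DMSO and 30 and 30 with GSK-J4 (log2 fold 2.13 ± 0.301, limma adjusted p = 9.4e-10). In MYLK, myosin light chain kinase, one rose from 17 and 10 to 38 and 40 tags, and near KLHDC7B one rose from 8 and 11 to 31 and 32. KCNG1 and PYGB were the other genes with a named higher summit. Among the falling summits, one in IGSF9B (chr11:133815652-133815916), an adhesion molecule of inhibitory synapses, went from 69 and 60 to 27 and 17 tags (log2 fold −1.66 ± 0.193, limma adjusted p = 1.2e-14). One in GSE1 went from 71 and 81 to 37 and 28 tags, and those near TMEM121 and B3GNT7 were lower as well. After MYCN the genes with the most lower summits were GSE1 (7 of 58) and RET, the receptor of GDNF signals (7 of 25), beside 11.2% of all tested. COL6A1, picked after its values were seen, had 5 of 5. Counts for these 3 genes were not taken after centring, under which 87 summits in all were lower.

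The motifs were also counted in these summits, which every library had called. TGATGCAA was in 7 of the 139 higher summits (5.04%, Wilson interval 2.46 to 10%), 4 of the 800 lower (0.5%, 0.195 to 1.28%) and 0.716% of all tested. TGANTCA was in 15.1% of the higher (10.1 to 22%) and 5.88% of the lower (4.45 to 7.73%), beside 7.98% of all tested, and GGGCGG in 12.9% and 26.6%, beside 19.8%. The CTCF core was in 7.19% of the higher (3.95 to 12.7%), 1.12% of the lower (0.593 to 2.12%) and 2.08% of all tested summits. For each of these 4 motifs the intervals of higher and lower summits did not overlap. Motif shares were not taken after centring, under which 87 summits were lower.

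How the changed regions stood in other libraries was recorded last. With siCtrl, a control siRNA, lost regions had an H3K4me1 island in 86.7% and 85.3% of cases and gained regions in 45% and 44.4%, beside 78.4% and 78.2% of all regions. Regions called in all 4 had one in 94.4% in both. These libraries were deeper, with 0.0849 and 0.0902 tags of background, and the part of depth was not tested. After the siRNA to KDM6B, with 0.105 and 0.107 tags, gained regions away from promoters had an island in 21.4% and 21.0% and lost ones in 59.4% and 59.5%, beside 62.2% and 61.9% of all distal regions. Lost promoter regions had one in 93.8% in both, beside 90% and 89.7% of all promoter regions. The lost regions were thus near the share of all regions. H3K27me3 islands touched 23.9% and 25.2% of all 23123 regions with DMSO and 51.9% and 27.8% with GSK-J4. They touched 1.84% and 2.62% of gained regions with DMSO and 9.69% and 3.45% with GSK-J4, against 8.16% and 7.99% of lost regions with DMSO and 16.7% and 8.24% with GSK-J4. GSK-J4 replicate 1 of that mark stood apart, with 16675 islands against 7174 to 8005 in the other 3 libraries. At regions called in all 4 H3K4me1 libraries the shares were 37.4% and 39.7% against 83.2% and 44.4%.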

How the data were processed

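H3K4me1 was measured by CUT&Tag in BE2C cells, with 2 libraries each for DMSO and GSK-J4, grouped by their titles. Reads were aligned to hg19 by the authors. Per the labels, Trim Galore 0.4.4, BWA 0.7.12, Picard 1.65, SAMtools 1.3.1, bedtools 2.25.0, SICER 1.1 and MACS2 2.1.1 were used. The deposited island score was given by SICER per library in windows of 200 bp. The authors ran MACS2 on each library for narrow peaks, which were deposited with the fold enrichment at the summit and with −log10 p and q values. Reads and spike-in factors were not used here, so that the read-level test of the study was not run. Libraries were therefore not scaled to each other in the comparison of islands, and a deeper library can yield more calls.

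Summit tags and the genome background were recovered from the deposited fold and −log10 p values. Depth is given as this background because read totals were not used here. Genes and starts were taken from GENCODE on GRCh37, with 20162 protein-coding genes. Promoters extended 1 kb to each side of a start, and genes 5 kb. A gene was called higher or lower when both libraries of one group exceeded both of the other by at least 1 kb of covered length. Summits were tested with limma 3.58.1 (R 4.3.3) at a mean of at least 10 tags and an adjusted p under 0.05. Values per library were tested with the exact two-sided permutation test, by listing every split of the libraries. Shares have 95% Wilson intervals (scipy 1.17.1), and all intervals cover counting error only. Motifs were searched in the genome sequence with pysam 0.24.0, and figures were drawn with matplotlib 3.10.9. Scripts were tested on simulated data. The genes named were the 10 in each direction with the widest gap (promoters and covered length), the highest lower score of the calling libraries (distal regions) or the lowest adjusted p (summits), and the changed members of the gene lists. Members, lists and tests were chosen with earlier results of these data known. A few items are not reported here. Alternatives changed the joining, length and number of islands, the minimum gap, the scaling and minimum of summits, and the libraries.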

Additional observations from a re-analysis of the deposited data

How the results depend on the processing

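The higher share of promoters among lost than among gained regions kept its direction under each alternative run, with a difference of −24.7 percentage points as called, −25.2 to −22.0 when each library was left out in turn, and −27.4 (equal covered length) to −12.6 (narrow peaks) under the others. Counts moved more. Islands of at least 2 kb gave 280 lost promoters, equal covered length gave 1123 gained regions and 76 gained promoters, and narrow peaks with a −log10 q of at least 2 in place of islands gave 4293 gained and 4030 lost regions. A gap of at least 5 kb left 298 genes higher and 49 lower. Among the list genes reported here, the sign of the difference reversed at equal covered length at ALK (−0.3 kb), NAV2 (−0.7 kb) and CRABP2 (−0.1 kb), of which CRABP2 had not been called; the cause was not tested.

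Leaving out each library in turn gave 2206 to 3116 gained and 1778 to 2581 lost regions, 185 to 281 gained and 679 to 944 lost promoters, 1727 to 2360 higher and 1421 to 2284 lower genes, and 9.64 to 14.9 Mb gained and 7.91 to 13.1 Mb lost. Fewer libraries then have to meet the rule, so these counts rise by construction. Without DMSO replicate 2, the shallowest library, the order turned: 2206 regions were gained and 2581 lost, 1727 genes higher and 2284 lower, and 9.64 Mb gained and 13.1 Mb lost. Covered length differed between groups by −1 to 8.69 Mb and was reversed without the same library. Lower summits numbered 146 to 530 and higher ones 54 to 78, and the fewest lower ones were found without DMSO replicate 2.

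Summits were lower in 87 peaks after centring and in 59 after quantile normalization. With a mean of at least 20 tags 64 were higher and 471 lower, and with the fold as deposited 2 and 1. Of the 20 named summits 18 were not called with the fold as deposited, and none of the 20 lost its call under another alternative in which it was tested. With a replicate block 75 were higher and 407 lower. Deviations of same-numbered libraries had a correlation of −0.0481 over 7127 peaks, so these libraries shared little deviation in summit height. Whether they were prepared in pairs is not given by the titles, and the correlation cannot decide it. In windows of 45 to 55% GC, an alternative chosen after seeing the data, the ATF4 composite was in 5.38% of gained and 1.13% of shared distal regions, and the GC box in 3.23% of gained and 5.97% of lost ones. The median narrow peak summit held 4 or 5 tags, and how depth limited these calls was not tested.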
